A study of Mus musculus with 12 samples.

Results

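F13a1 encodes the A subunit of coagulation factor XIII, the transglutaminase that cross-links fibrin once thrombin has activated it. The gene is best known from monocytes, macrophages, megakaryocytes and platelets, where the protein is stored inside the cell. H3K9/14ac, histone H3 carrying acetyl groups on lysines 9 and 14, is found at active promoters and enhancers, and long stretches of it usually mark genes under strong enhancer control. In the T helper 17 (Th17) cells studied here, the body of F13a1 lay under one of the most extended acetylated stretches of any protein-coding gene, and that stretch was shorter and more broken up in the libraries of cells without the glucose transporter GLUT3.

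The KO libraries came from Th17 cells of Slc2a3-fl/fl Cd4-cre mice, in which a Cre driven by the Cd4 promoter deletes the gene for GLUT3 in the T cell lineage. The WT libraries came from wild-type Th17 cells, and the labels do not say whether these carried Cd4-cre. All cells were C57BL/6 naive CD4 T cells cultured for 3 days under Th17 conditions, then given PMA and ionomycin for 3 h, with brefeldin A and monensin added to keep cytokines inside the cells. There were 3 KO and 3 WT ChIP libraries, made by RELACS, in which the chromatin of each sample is barcoded within its nuclei so that the 6 samples can share 1 immunoprecipitation. The labels do not say whether the libraries of a genotype came from separate mice, so the spread between them may be technical. The peaks of each library, called on paired-end fragments, and the authors' deposited table of 40909 tested regions are described here over F13a1 and 200 kb to each side.

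F13a1 (gene ID 74145) lies at chr13:36867178-37050244 of GRCm38, a span of 183 kb, and is transcribed from the high coordinate towards the low one. Distances below are counted from its first annotated start, at 37050244, in that direction. The span held 60 of the 40909 tested regions, and the window with both flanks held 96. The gene was chosen by the KO against WT fold changes of these regions in the authors' deposited table, so every KO and WT value over its span is a description and was not tested. Its peaks numbered 50, 51 and 56 in KO libraries 1 to 3 and 40, 37 and 38 in WT libraries 1 to 3.

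The libraries differed in depth with genotype. Mean fragment coverage, recovered from the fold and p-value of the peaks, was 1.85, 2.29 and 1.92 in KO and 3.99, 3.48 and 2.97 in WT, so KO averaged 58.0% of WT (two-sided exact permutation p = 0.1, the smallest possible with 3 libraries each). Peaks covered 53.7 to 58.4 Mb of the genome in KO and 65.2 to 70.5 Mb in WT, 82.7% as much in KO. The part of this depth gap in the F13a1 values was not tested. KO library 3 had 11 peaks on chromosome Y, against 1 or 2 in each of the other libraries. Peak cover of Slc2a3 itself was 3.82 to 6.13 kb in KO and 11.8 to 12.3 kb in WT, and the authors' deposited table called 8 of its 9 regions lower. A histone mark over the gene does not show which sequence was deleted.

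The RefSeq annotation of GRCm38.p6 gives F13a1 a pair of starts, about 1 kb apart, and both promoters are shown because the acetylated stretch does not begin there. Each sequence runs 5′ to 3′ on the minus strand, from 250 bases before the start to 50 after it, and capitals mark the letters AGGAAG, the core of sites bound by Ets factors.
F13a1 first start, chr13:37050195-37050494: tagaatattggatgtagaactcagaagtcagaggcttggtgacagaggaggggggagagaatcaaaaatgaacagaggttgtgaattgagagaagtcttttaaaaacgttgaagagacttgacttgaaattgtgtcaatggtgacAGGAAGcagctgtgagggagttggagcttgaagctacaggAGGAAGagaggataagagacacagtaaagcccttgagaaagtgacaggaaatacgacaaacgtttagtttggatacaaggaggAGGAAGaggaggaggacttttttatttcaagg
F13a1 second start, chr13:37049164-37049463: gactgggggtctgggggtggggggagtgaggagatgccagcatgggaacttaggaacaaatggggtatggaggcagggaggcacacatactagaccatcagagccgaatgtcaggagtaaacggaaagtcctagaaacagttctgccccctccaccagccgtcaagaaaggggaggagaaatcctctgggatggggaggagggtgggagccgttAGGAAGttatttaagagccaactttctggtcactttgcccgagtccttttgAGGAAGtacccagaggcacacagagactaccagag
The first holds AGGAAG at 3 places and the second at 2, and 35.4% of 32817 RefSeq promoters of this length hold it on either strand. Neither held TGANTCA (AP-1), TATAAA (bound by TBP), AGATAA (bound by Gata3), AGGTCA (bound by ROR receptors) or GGGCGG (Sp1) on either strand, which are found in 7.81%, 13.6%, 11.2%, 16.3% and 35.6% of promoters. With 3 and 5 CpG dinucleotides, against a median of 7, neither promoter is rich in CpG. A match is a description of the letters and not a site of binding.

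Acetylation at these starts was low in both genotypes. Peaks covered 86, 300 and 122 of the 300 bases of the first promoter in KO and 86, 300 and 300 in WT. Over the second promoter there was no peak in KO, and WT library 3 alone had 69 bases of one. The highest peak at the first start stood 17, 21 and 24 fragments high in KO and 37, 32 and 35 in WT. As multiples of each library's mean coverage these heights were 9.19, 9.17 and 12.5 in KO and 9.27, 9.20 and 11.8 in WT, and the genotypes overlapped. The tested region at the start, chr13:37049851-37050300, had a log2 fold change of KO over WT of -0.43 in the authors' deposited table (FDR = 0.358) and was not called.

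The bulk of the mark lay deep in the gene. Peaks covered 78.8, 94.1 and 76.3 kb of the span in KO (mean 83.1 ± 9.63 kb, SD, n = 3) and 118, 127 and 128 kb in WT (mean 124 ± 5.46 kb, SD, n = 3). Every KO library was below every WT library, and KO averaged 66.8% of WT. That is 45.4 ± 5.26% of the span in KO and 67.9 ± 2.98% in WT (SD, n = 3 each). Of the 13083 protein-coding genes with a peak over their span, 31.6% had every KO library below every WT library and 6.5% had every KO library above. Of the 718 genes with a WT mean of at least 10 kb covered, 380 (52.9%) had every KO library below and 75 had every KO library above. Per 1000 covered bases of the genome, F13a1 took 1.47, 1.61 and 1.38 bases in KO and 1.67, 1.95 and 1.92 in WT, so it was also lower as a share of all peak-covered sequence.

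**Figure D1:**
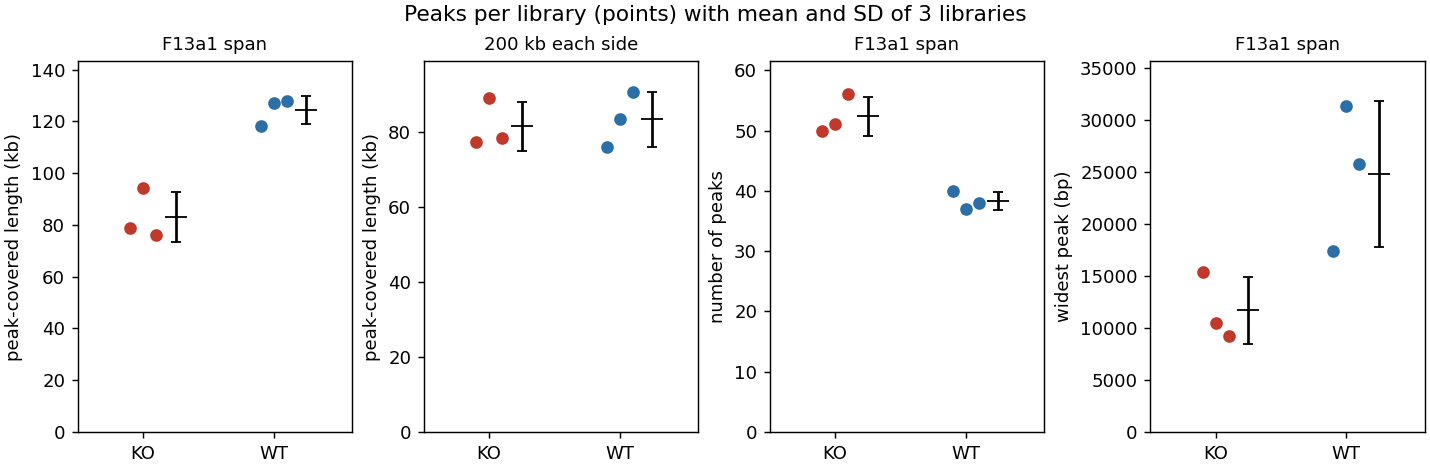
Peaks of the 6 libraries over F13a1 and over the 200 kb on each side of it, each point 1 library, with the mean and SD of the 3 libraries of a genotype beside them. Covered length over the gene was 76.3 to 94.1 kb in KO and 118 to 128 kb in WT, the length outside it overlapped, and KO had more and narrower peaks over the gene.

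The KO peaks over F13a1 were more numerous and shorter. Their median width was 725, 997 and 803 bp in KO and 1181, 1237 and 1032 bp in WT, without overlap. Over all peaks of a library it was 821, 853 and 804 bp in KO and 954, 951 and 926 bp in WT, also without overlap. The KO mean of these medians was 73.2% of WT over F13a1 and 87.5% over all peaks. The widest single peak measured 15353, 10511 and 9209 bp in KO and 17403, 31335 and 25831 bp in WT. Of the 105115 bases of F13a1 covered in all 3 WT libraries, 51.4% were covered in all 3 KO libraries too and 11.3% in none. Over the whole genome these shares were 67.6% and 11.5%. No base of the gene was covered in all 3 KO libraries and no WT library.

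In WT the stretch was not evenly spread. Bases covered in at least 2 WT libraries, joined across gaps of up to 5 kb, formed a domain of 115 kb at chr13:36855901-36970942, with 88.8% of it covered, reaching 79.3 to 194 kb from the start and so past the far end of the gene. Joining gaps of up to 10 kb gave 219 kb in its place. By covered length the 115 kb domain ranked 9th of 20326 such domains in the genome, and by total length 12th. KO peaks covered 56.3, 72.0 and 60.0 kb of it, and WT peaks 96.0, 102 and 101 kb. A second block of 33.0 kb lay nearer the start, at chr13:36993504-37026471, and held 19.0, 21.6 and 17.7 kb of peaks in KO and 23.3, 24.0 and 27.5 kb in WT. The sequence between the blocks and that just inside the start carried few peaks in either genotype.

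**Figure D2:**
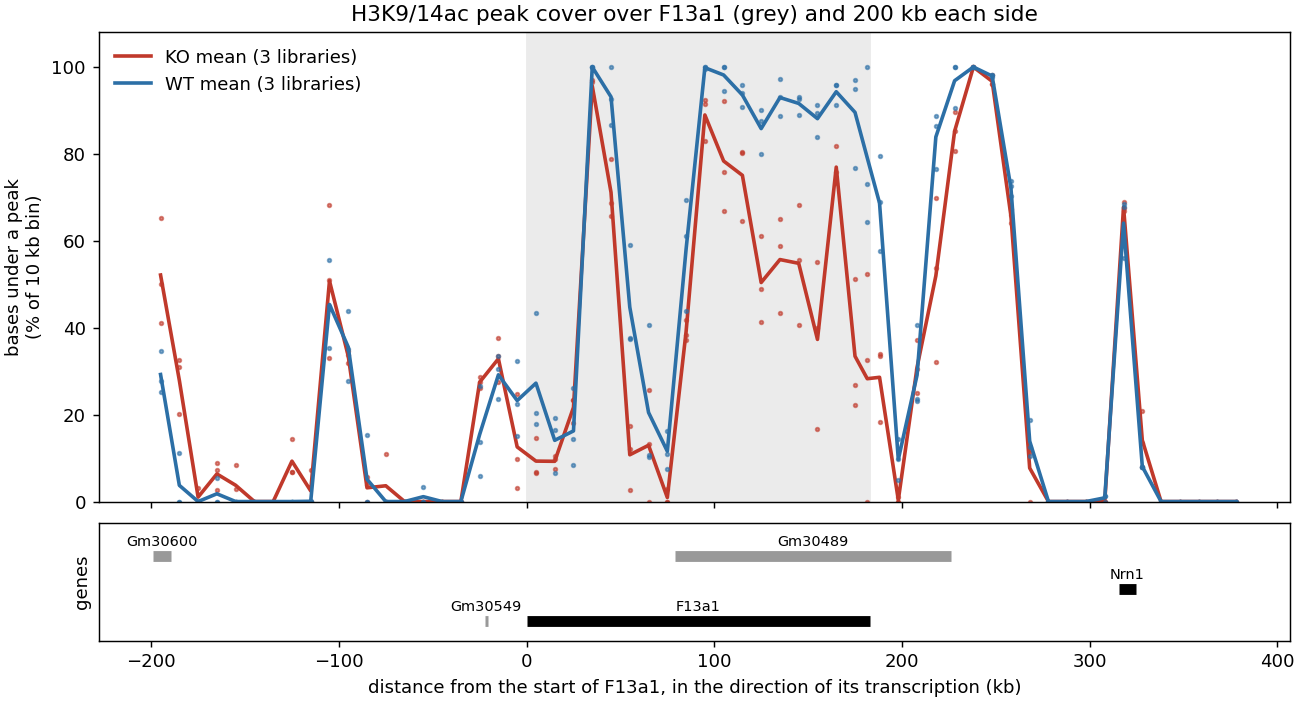
Percent of each 10 kb bin under a peak, against distance from the F13a1 start in the direction of transcription, with lines for the mean of 3 KO (red) and 3 WT (blue) libraries and points for single libraries. F13a1, Nrn1 and the non-coding genes Gm30489, Gm30549 and Gm30600 are drawn to scale under the lines. The lines run close between 30 and 40 kb and in the block near 240 kb, and over the gene they part widest at 150 to 160 kb and from 170 kb to the end of the gene.

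Along the gene the genotypes parted most in its far part. Between 170 and 180 kb from the start, peaks covered 22.2%, 51.3% and 26.9% of the bin in KO and 94.8%, 97.0% and 76.8% in WT. Between 150 and 160 kb they covered 40.0%, 55.2% and 16.7% in KO and 83.8%, 91.2% and 89.3% in WT. Within the block nearer the start, from 30 to 40 kb, cover was 96.6%, 97.0% and 93.4% in KO and 100% in each WT library, a small difference. Of the 19 bins over F13a1, 16 had every KO library below every WT library and 0 the reverse. Across the genome, 29.7% of the 36997 bins with a peak had every KO library below and 7.85% every KO library above.

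Region by region, the authors' deposited table put most of the lower regions in the far part of the gene. At an FDR under 0.05 it called 48 of the 60 regions over F13a1 lower in KO, or 80%, and none higher, while it called 46.3% of all tested regions lower, 12.7% higher and 59% either way. The median log2 fold change of the 60 was -1.04, with quartiles of -1.19 and -0.86, and 59 were negative; the median of all tested regions in the authors' deposited table was -0.62. Setting these fold changes to mean coverage in place of the authors' scaling moves every one up by 0.30, to medians of -0.74 for F13a1 and -0.32 for all regions; each FDR stays as deposited. Regions called lower made up 78600 of the 97800 bp tested over the gene, and 31514250 of 59233200 bp over all 40906 located regions. Of the 652 windows of 150 bp in the 60 regions, the authors' deposited table had 480 going down (73.6%) and none going up. Of the 399139 windows in all located regions, 39.0% went down and 38437 windows went up.

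By position, 3 of 10 regions within 61.0 kb of the start were called lower, with a median log2 fold change of -0.52 in the authors' deposited table. In the next 61.0 kb the authors' deposited table called 14 of 18 lower, with a median of -1.01, and in the far 61.0 kb it called 31 of 32, with a median of -1.18. The longest unbroken run of lower regions was 39. Over these 3 parts of the gene, the median change thus deepened with distance from the start. It did not do so evenly by 10 kb bin, with medians of -1.03 at 40 to 50 kb and -0.90 at 90 to 100 kb.

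**Figure D3:**
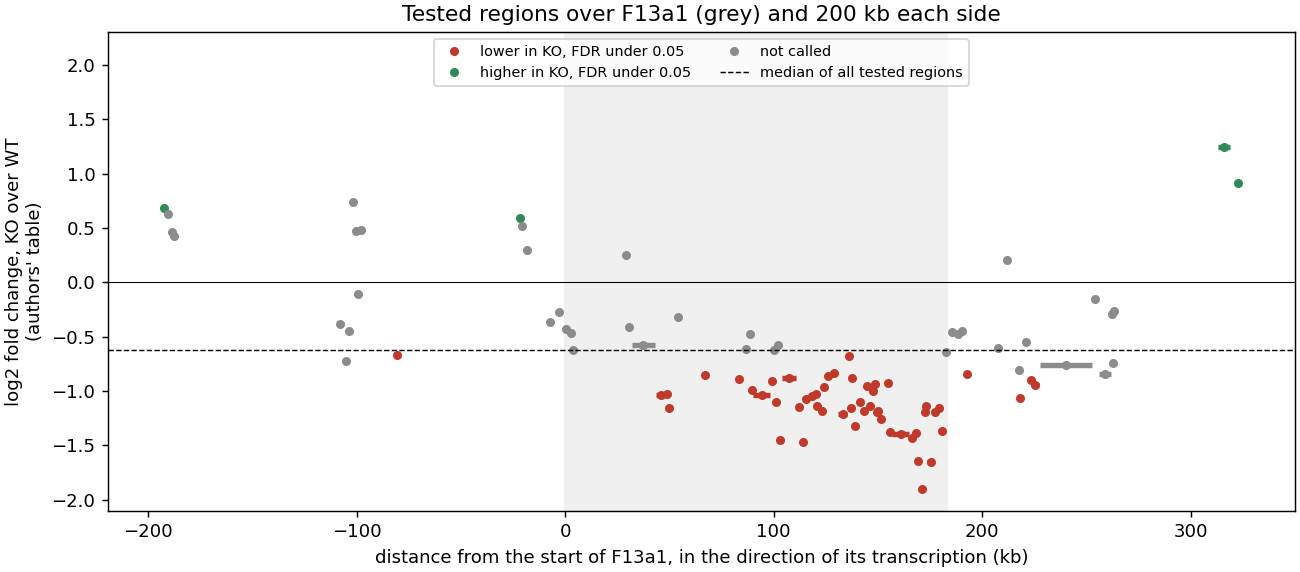
Log2 fold change of KO over WT in the authors' deposited table for each of the 96 tested regions of the window, against distance from the F13a1 start, with bars for the length of each region. Red regions are lower in KO, green higher and grey not called. All 48 called regions over the gene lie below the median of all regions, drawn dashed at -0.62.

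The deepest change was at chr13:36878101-36880200, about 171 kb from the start. Peaks covered 13.5%, 66.8% and none of this region in KO libraries 1 to 3 and 100%, 100% and 91.4% in WT libraries 1 to 3. Its log2 fold change was -1.90 in the authors' deposited table (FDR = 3.62e-07). The next was at chr13:36873451-36876600, with -1.65 (FDR = 1.15e-06) in the authors' deposited table. Here the summit, 176 kb from the start, stood 46, 32 and 57 fragments high in KO and 125, 145 and 124 in WT.

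Most regions that were lower in KO still had peaks there. Of the 60 regions, 35 had a peak in all 3 KO and all 3 WT libraries, and the authors' deposited table called 30 of these lower. Another 4 had a peak in every WT library and in no KO library, and all 4 were called lower. These 4 regions are short, at 450 to 600 bp, and lie at 49.2, 49.5, 114 and 150 kb from the start. The share of all tested regions with these patterns is not given here, so the counts are a description. By bases, 11.3% of the sequence covered in all 3 WT libraries was covered in no KO library here, against 11.5% over the genome. One further region had a peak in 1 WT library and in no KO library. At the depths above, a missing peak does not show that the mark was absent.

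The 12 regions not called in the authors' deposited table fell in a few places. Of these, 3 stood within 4 kb of the start, at log2 fold changes of -0.43 to -0.62 in the authors' deposited table. The widest tested region of the gene, 10650 bp at chr13:37007401-37018050 in the block nearer the start, was listed at -0.57 (FDR = 0.128) in the authors' deposited table. Its highest summit, whose place varied by 2643 bp between libraries, stood 112, 143 and 111 fragments high in KO and 240, 221 and 200 in WT. As multiples of mean coverage it was 60.5, 62.4 and 57.8 in KO and 60.2, 63.5 and 67.3 in WT, and the genotypes overlapped. The single positive value of the gene, 0.25 in the authors' deposited table (FDR = 0.778), lay beside it at 29.0 kb.

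Heights were compared in regions with a peak summit in all 6 libraries, by the highest summit of each region. There were 10 of these in F13a1, and the place of the highest summit differed between libraries by 25 to 2986 bp. Of the 10, 5 had every KO library below every WT library in multiples of mean coverage, while none had the reverse. In 17887 such regions of the genome, every KO library was below in 19.7% and above in 25.2%. The KO means of the 10 ran from 59.5% to 117% of the WT means, with a median of 71.6%, against 102% over all 17887. The summit at 142 kb stood 27, 34 and 31 fragments high in KO and 90, 98 and 77 in WT. Relative to mean coverage, heights at the first start and in the block nearer it were close between genotypes, and those at 142 to 176 kb were lower in KO.

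**Figure D4:**
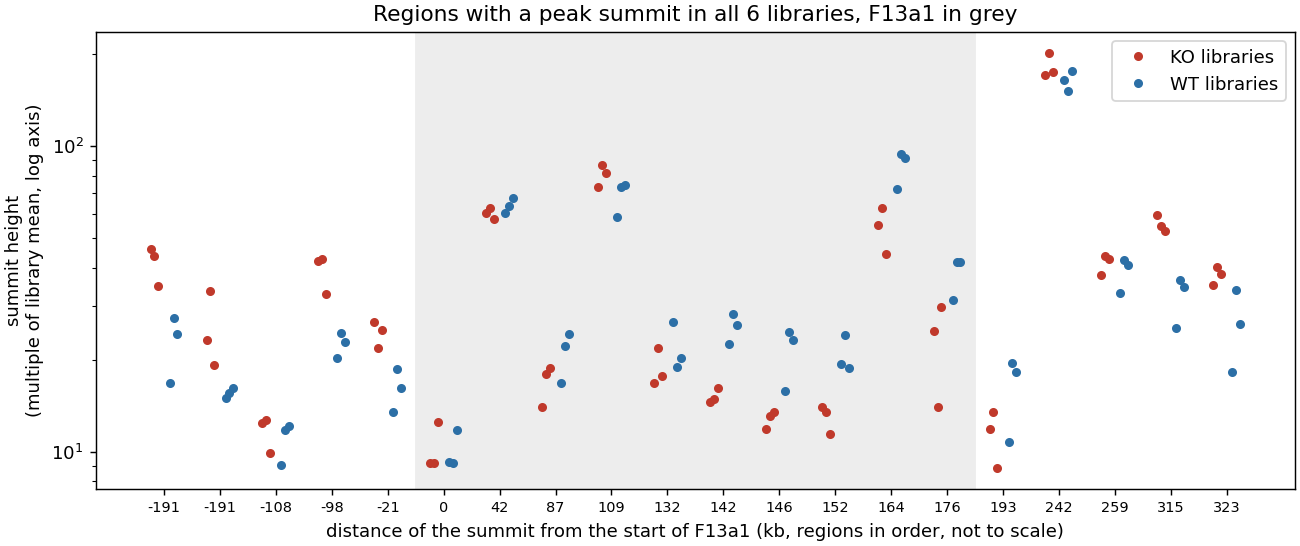
Height of the peak summit as a multiple of each library's mean coverage (log axis), for the highest summit in the 20 regions of the window where all 6 libraries have one, KO in red and WT in blue. Regions are in order of distance from the F13a1 start and not to scale, with the gene in grey. KO lies below WT at 142, 146, 152, 164 and 176 kb and above it in 4 regions before the start and at both Nrn1 summits, near 315 and 323 kb.

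The tallest peak of the gene was at a different place in each genotype. The summit 164 kb from the start, in the region chr13:36885301-36893400, had 102, 144 and 85 fragments in KO and 289, 327 and 271 in WT, and its position varied by 25 bp over the 6 libraries. It was the tallest of the gene in every WT library and in no KO library. The authors' deposited table gave that region a log2 fold change of -1.39 (FDR = 6.18e-09).

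In all 3 KO libraries the tallest peak was instead at 109 kb, in the region chr13:36939751-36946200, with 136, 198 and 157 fragments in KO and 233, 256 and 221 in WT. As multiples of mean coverage this summit was 73.5, 86.5 and 81.8 in KO and 58.4, 73.6 and 74.4 in WT, and the genotypes overlapped. For this region the authors' deposited table listed a log2 fold change of -0.88 (FDR = 0.0281). That value is of the region's best window, 105 kb from the start and so not at the summit, and 17 of the region's 43 windows went down. The height of the 164 kb summit over that of the 109 kb summit, a ratio taken within a library, was 0.75, 0.727 and 0.541 in KO and 1.24, 1.28 and 1.23 in WT. The mean ratio was 0.673 ± 0.114 in KO and 1.248 ± 0.026 in WT (SD, n = 3 each). The 2 summits were picked as the tallest in each genotype, so the lack of overlap in this ratio was fixed by that choice. It is no separate result.

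Over the 200 kb on both sides of F13a1, KO and WT overlapped, with the sides in opposite directions. Peaks covered 77.3, 89.1 and 78.4 kb in KO and 76.1, 83.6 and 90.8 kb in WT. KO minus WT was -1911 bp (two-sided exact permutation p = 0.8, n = 3 each), less than the spread between libraries. Within 100 kb of the gene it was -10153 bp (exact permutation p = 0.2). No p under 0.1 can be reached with 3 libraries each. The direction of the difference over 200 kb turned without KO library 1 (232 bp) or WT library 3 (1738 bp). Of the 36 tested regions outside the gene, the authors' deposited table called 5 lower and 4 higher in KO, with a median log2 fold change of -0.33.

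Beyond the far end of the gene, where the domain runs on, peaks covered 52.2, 58.0 and 54.6 kb in KO and 62.0, 64.5 and 67.0 kb in WT. Every KO library was below every WT library there, with a mean KO minus WT of -9614 bp (exact permutation p = 0.1). KO averaged 85.1% of WT on this side, close to the 82.7% of peak cover over the whole genome, where the genotypes did not overlap either. Before the start peaks covered 25.1, 31.1 and 23.8 kb in KO and 14.1, 19.1 and 23.8 kb in WT, 141% as much in KO, and the genotypes overlapped (exact permutation p = 0.2). In the authors' deposited table the 17 regions before the start had a median log2 fold change of 0.43, with 1 lower and 2 higher. The higher ones lay over the long non-coding RNA genes Gm30549 (chr13:37071751-37072050, 0.59, FDR = 0.0292) and Gm30600 (chr13:37241401-37243650, 0.68, FDR = 0.0444) in the authors' deposited table.

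Beyond the far end stands the tallest peak of the window, in a block of 24750 bp at chr13:36797551-36822300 that overlaps no annotated gene. Its summit, 242 kb from the F13a1 start, had 316, 461 and 335 fragments in KO and 657, 528 and 522 in WT. As multiples of mean coverage it reached 171, 201 and 174 in KO and 165, 152 and 176 in WT, and the genotypes overlapped. The authors' deposited table gave the block a log2 fold change of -0.76 (FDR = 0.0667), which was not called. That value is of its best window, 231 kb from the start and so not at the summit. Of the block's 165 windows, 16 went down and 3 went up. The block was almost fully covered in all 6 libraries, as the map of peak cover shows.

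Nrn1, which encodes the neuronal growth protein neuritin and is also known from regulatory and anergic T cells, is the only other protein-coding gene in the window and lies beyond the far end of F13a1. Peaks covered 5.35, 5.05 and 5.09 kb of its span in KO and 4.31, 4.88 and 4.96 kb in WT. Both its tested regions were higher in KO in the authors' deposited table, by a log2 fold change of 1.24 at chr13:36731401-36737250 (FDR = 1.32e-05) and 0.91 at chr13:36726301-36728400 (FDR = 0.00807). The summit of the first had 110, 125 and 101 fragments in KO and 101, 127 and 103 in WT. In multiples of mean coverage this was 59.5, 54.6 and 52.6 in KO and 25.3, 36.5 and 34.7 in WT, without overlap. Scaled by the authors or to mean coverage, Nrn1 and F13a1, 133 kb apart, had changes of opposite sign, while the unscaled heights at Nrn1 overlapped.

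Of F13a1 and the 11 protein-coding genes around it, made up of Nrn1 and the 5 nearest beyond the window on each side, none other had most of a long span acetylated. The 11 neighbours held 66 tested regions, of which the authors' deposited table called 18 lower, or 27.3%, and 16 higher, against 46.3% lower and 12.7% higher of all regions. In the counts by gene, 1 region stands under both Cage1 and Riok1 and 1 under both Lyrm4 and Fars2. Fars2, the mitochondrial phenylalanyl-tRNA synthetase, spans 420 kb and held 46 of the regions, 10 lower and 12 higher. Its peaks covered 57.2, 78.1 and 77.3 kb in KO and 71.0, 57.4 and 54.3 kb in WT, which overlap. Ly86, which encodes MD-1 of the RP105 receptor complex of B cells and macrophages, is the nearest protein-coding gene before the F13a1 start, 295 kb away. The authors' deposited table listed its 1 region as lower, at -1.71 on the log2 scale (FDR = 6.45e-07), on peaks of 0.53, 0.45 and 1.12 kb in KO and 0.99, 1.49 and 1.12 kb in WT.

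**Figure D5:**
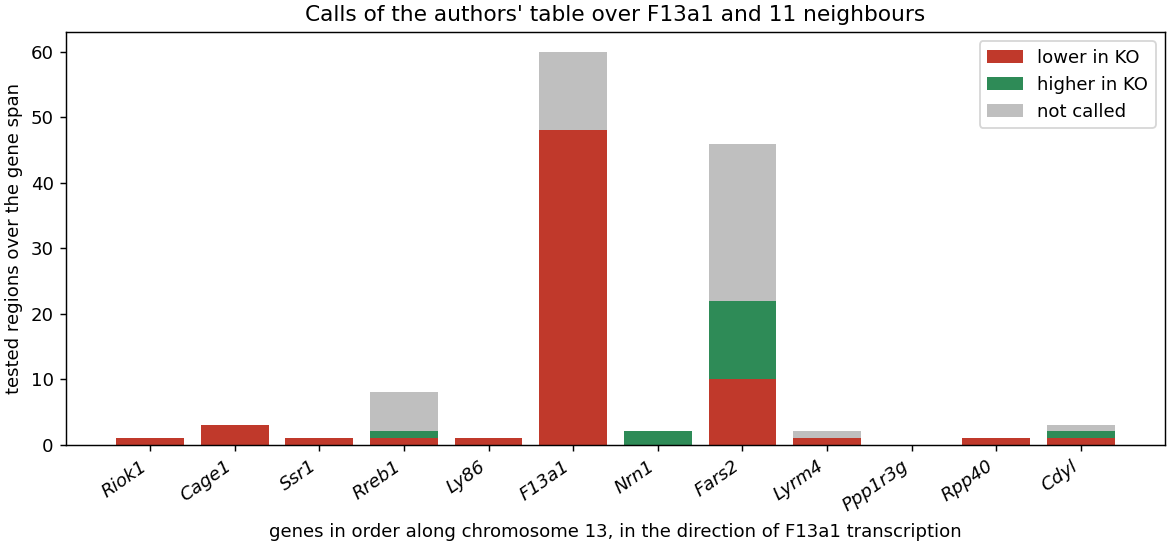
Number of tested regions over F13a1 and each of the 11 neighbouring protein-coding genes, in order along the chromosome in the direction of F13a1 transcription, split into those lower in KO (red), higher in KO (green) and not called (grey) in the authors' deposited table. F13a1 has 48 lower of 60, Fars2 has 10 lower and 12 higher of 46, and Nrn1 has 2 higher of 2.

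Among the other neighbours, Rpp40, a subunit of ribonuclease P, had its 1 region lower (-1.04), as did Ssr1 of the translocon-associated complex (-0.99) and the kinase gene Riok1 (-0.95) in the authors' deposited table. Cage1 had 3 of 3 regions lower and Lyrm4, needed for iron-sulphur cluster assembly, 1 of 2. Rreb1, a zinc finger transcription factor, had 1 lower and 1 higher of 8, and Cdyl, a chromodomain corepressor, 1 lower and 1 higher of 3. Ppp1r3g had no peak. Of the 11 neighbours, every KO library was below every WT library in peak-covered length for Rpp40 and Cage1, and above for Nrn1. Among all protein-coding genes with a peak over their span, 31.6% had every KO library below and 6.5% every KO library above.

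Long non-coding RNA genes overlap F13a1, and the mark cannot be assigned to one gene or the other. Gm30489 spans 147 kb at chr13:36823990-36970968 and shares 49 of the 60 F13a1 regions, 44 of them lower in the authors' deposited table. Of the 11 F13a1 regions outside Gm30489, 4 were lower. Gm30240, nearer the start, holds 1 region, which was not called.

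F13a1 was unusual among genes for how much of it was acetylated, and less so for how much was lost. By peak-covered length in WT it ranked 7th of 21887 protein-coding genes, of which Wwox had the most, and in KO 11th. Among the 697 genes of like span, it had the highest covered share in WT, where the median share was 0.82%, and the 4th highest in KO. Of the 94 such genes with at least 10 kb covered in WT, F13a1 had the 23rd lowest KO cover relative to WT, and 45 had every KO library below every WT library. The median gene of the 94 kept 84.7% in KO.

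The genes next in WT share at this length did not all change alike. Ube2cbp, an E3 ubiquitin ligase gene, kept 57.4% of its WT cover in KO, with 56.2, 54.6 and 45.2 kb in KO and 91.4, 86.6 and 94.0 kb in WT, and the authors' deposited table called 40 of its 43 regions lower. Hivep2, a zinc finger transcription factor gene, kept 76.5%. Prkch, for protein kinase C eta, had 96.6% and the survival gene Bcl2 105%, with overlapping genotypes. Exoc2, an exocyst subunit gene on the same chromosome, had 117%, with 118, 120 and 118 kb in KO and 104, 101 and 98.2 kb in WT.

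Likeness to F13a1 was measured over the 6 libraries as the Euclidean distance between peak-covered lengths, each as a percent of the gene's WT mean, for 711 genes with at least 10 kb covered. Among the nearest were Sms (spermine synthase), with a distance of 7.40, LOC108168726 at 10.4, Ubac2 at 10.8 and Mink1 (a kinase) at 11.7, against a median of 45.8. Ubac2 was the longest of them, with 47.5, 49.6 and 45.0 kb in KO and 68.5, 67.8 and 76.1 kb in WT. In each of these genes, KO library 2 had the highest cover of the KO libraries, as in F13a1. The genes were chosen by likeness over these same 6 libraries, so the shared order is no separate result. KO library 2 also had the highest mean coverage in KO, at 2.29 against 1.85 and 1.92 in KO libraries 1 and 3.

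The partners and substrates of factor XIII carried little of the mark. Of 22 listed genes, 8 had no peak over the span or within 5 kb in any library, namely the F13b subunit gene, the fibrinogen genes Fga and Fgb, F2 for thrombin, Fn1 for fibronectin, Plg for plasminogen, F7 and F10. The 12 with a tested region held 28, of which the authors' deposited table called 13 lower, or 46.4%, close to the 46.3% of all regions, and 2 higher. The fibrinogen gene Fgg had no peak in KO and 2.69, 2.20 and 1.01 kb in WT.

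Among inhibitors and proteases, Serpinf2, for the antiplasmin that factor XIII couples to fibrin, had 3 of 3 regions called lower in the authors' deposited table, Plau (urokinase) 1 of 2 and Vtn (vitronectin) 1 of 1. Tgfb1 and F8 had 1 lower region each, of 4 and 2. The higher ones were 1 region each of Plaur, the urokinase receptor (1.18, FDR = 2.93e-06), and F5, coagulation factor V (0.75, FDR = 0.00635), in the authors' deposited table.

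Of the 8 other transglutaminase family genes, Tgm5, Tgm6, Tgm7 and Epb42 had no peak. Tgm2, the tissue transglutaminase, had 1 of 2 regions higher in the authors' deposited table, at 1.63 on the log2 scale (FDR = 7.72e-08), and its peaks covered 2.96, 3.27 and 1.83 kb in KO and 0.84, 1.17 and 0.86 kb in WT. The single regions of Tgm3 (1.05) and Tgm1 (1.02), both known from keratinocytes, were also higher, and that of Tgm4 from the prostate (-0.82) was lower, in the authors' deposited table. None of these genes held as much as 4 kb of peaks in a library, so F13a1 was the one member of its family with a long acetylated domain in these cells.

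Genes of the cells in which F13a1 is best known were examined beside it. Of 15 monocyte and macrophage genes, 8 had no peak in any library, among them Lyz2, Adgre1, Mrc1, C1qa, C1qb and Cebpa, and the summed cover of the list was 11.4 to 13.9 kb in KO and 18.8 to 19.9 kb in WT. The authors' deposited table called 8 of their 12 regions lower, or 66.7%, and none higher, against 46.3% and 12.7% of all regions, including 4 of 5 at Spi1, 2 of 2 at Cd68, 1 of 1 at Fcgr1 and the one at Ly86. Of 12 megakaryocyte and platelet genes, 6 had no peak, among them Pf4, Ppbp and Gp9, and the sum was 3.78 to 5.14 kb in KO and 4.58 to 5.73 kb in WT, with 2 of 5 regions lower in the authors' deposited table. Of 5 dendritic cell genes, 4 held 23 regions, of which the authors' deposited table called 17 lower, or 73.9%, with 16.8 to 23.5 kb in KO and 34.7 to 37.5 kb in WT. The 4 mast cell genes held no tested region and at most 0.64 kb.

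Genes of the labelled cells were covered in every library, except Il17f. Il17f had no peak over the span or within 5 kb in KO library 1. It had 0.42 and 0.44 kb in KO libraries 2 and 3 and 6.46, 3.01 and 4.54 kb in WT. The 9 T cell genes matched, of 10 listed, held 43 regions, of which the authors' deposited table called 27 lower, or 62.8%, and 1 higher, with 101 to 106 kb in KO and 129 to 134 kb in WT. The 10 Th17 genes held 130 regions, of which the authors' deposited table called 88 lower, or 67.7%, and 3 higher, with 124 to 144 kb in KO and 244 to 271 kb in WT. Both shares stood beside 46.3% lower and 12.7% higher of all regions. The part of these lists in the F13a1 values was not tested. In bulk chromatin, fewer cells with the domain and a weaker domain per cell cannot be told apart.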

How the data were processed

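H3K9/14ac ChIP libraries (3 KO and 3 WT) were analysed from the deposited files; the labels also list 6 input libraries, not analysed here. The submitters' processing notes name MACS2 2.2.6, deepTools 3.3.2, Bowtie2 2.3.5.1, cutadapt 2.8 and bcl2fastq 2.20.0.422 as tools, with mm10 and GRCm38 as builds. Not given in the sources used here are the program and scaling behind the differential table, and any use of input in peak calling.

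Peaks were called by the authors per library, once on paired-end fragments (used here) and once on single reads. Each peak of the deposited lists has the MACS2 columns: score, fold over background (a ratio), -log10 of the p-value and -log10 of the q-value. The authors' deposited table gives each region a log2 fold change of its best window, a p-value, an FDR, counts of windows going up and down and the best window's position; it has no value per library. The deposited list of significant regions carries a score, -10 times log10 of the FDR, and holds those with an FDR under 0.05.

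Spans of 24128 regions came from that list and 16440 were rebuilt by joining windows under single-read peaks, which returned 98.0% of the listed spans exactly; 338 were placed by their best window and 3 not located. Summit heights in fragments were solved from fold and p, with heights within 0.02 of a whole number for nearly 100% of peaks per library. On peaks simulated with the same formula, 100% and 99.97% of 3000 heights were recovered. The simulated backgrounds were above the mean coverage of the libraries, and the reading of mean coverage was not simulated. Mean coverage was read as the smallest background found at 50 or more peaks; the number of reads per library is unknown. In 1309 regions with a summit in every library the log2 fold changes of the authors' deposited table followed the log2 ratios of heights (r = 0.99 across regions, which are not replicates) with an offset of 0.49, which gives the direction of the table, negative for lower in KO.

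Covered length is the number of bases under at least 1 peak. Genes are 21887 protein-coding genes of GRCm38.p6, with spans and promoters from RefSeq; no exon annotation or genome was used, so introns and exons are not told apart. For library values outside F13a1, genotypes were set against each other with two-sided exact permutation tests. Python 3.11.15, numpy 2.4.6, pandas 2.3.3, scipy 1.17.1 and matplotlib 3.10.9 were used.

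F13a1, the gene lists and the cell type markers were chosen with earlier results of these data known. The genes named are F13a1, protein-coding genes of the window, the 5 nearest beyond it on each side, the listed genes, the 5 nearest by covered length over the 6 libraries and, at like span, the 5 with the highest WT share. A few genes that this rule names are not reported here. Alternatives were the single-read peaks, a -log10 q minimum of 5, the strongest peaks in equal numbers, leaving out each library, a replicate block, an FDR under 0.01, 50% overlap, another scaling and other margins. Same-numbered KO and WT libraries did not deviate together over 718 genes (r = 0.078, 0.0034 and -0.0061), so the replicate numbers were not taken as pairs.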

Additional observations from a re-analysis of the deposited data

How the results depend on the processing

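KO cover of F13a1, 66.8% of WT, ran from 62.3% to 69.5% when each library was left out, and was 46.8% with peaks called on single reads; the cause was not tested. Stricter peaks, equal numbers of peaks and a 5 kb margin gave 64.4%, 67.3% and 66.0%. Outside the gene, KO minus WT (-1911 bp) ran from -5673 to 1738 bp when each library was left out, turning positive without KO replicate 1 (232 bp) or WT replicate 3 (1738 bp), and stayed negative under the other settings, with -10153 bp (exact permutation p = 0.2) within 100 kb of the gene. With the replicate block the values were 66.8% and -1911 bp (exact paired permutation p = 1; the smallest possible is 0.25). Of the 48 regions called lower, 40 had an FDR under 0.01 in the authors' deposited table, and 48 had at least 50% of their length in the gene. Scaling to mean coverage adds one constant to every fold change and leaves each FDR as deposited, so that the 48 stay negative is no test of the calls. The joined domain and its alternative were chosen after seeing the data: gaps of up to 10 kb gave 219 kb in place of 115 kb.

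With 3 libraries per genotype no p under 0.1 can be reached, and KO libraries were shallower, so a peak not called in KO does not show that the mark is absent. Input and per-library counts of the differential table were not analysed here.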
